A study of Mus musculus with 6 samples.

Results

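These 8 genes encode regulators of transcription that carry the signal of the circadian clock to other genes or feed it back on the clock. They were chosen by symbol from a count table of 25031 genes made from mouse kidneys after ischemia and reperfusion, and all 8 (Dbp, Tef, Hlf, Nfil3, Bhlhe40, Bhlhe41, Ciart and Rora) were found there once each. The low-count filter kept all 8, so each was among the 15416 genes tested. The choice used no measured value, but it was made with earlier results of these data known.

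Kidney RNA was sequenced in 3 libraries from mice given 5 mg/kg of (+)CePPy, positively charged cerium-doped polypyrrole nanoparticles injected into a vein right after the injury, and in 3 libraries from mice given saline as vehicle. All animals of both groups were wild-type C57BL/6 males of 7 to 8 weeks whose kidneys had both been made ischemic for 23 minutes, with body temperature kept at 37 °C, and no uninjured kidney was analysed here. The sources used here give neither the time from injury to collection nor the hour of collection. Nothing in the labels ties each library to an animal of its own, so the tests are against a spread between libraries that could be technical.

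The clock of mammalian cells is a feedback loop in which CLOCK and BMAL1 (gene Arntl) switch on genes that carry an E-box, among them the Per and Cry genes whose proteins then shut CLOCK and BMAL1 off. Output factors relay this rhythm. DBP, TEF and HLF, the PAR bZIP proteins, activate genes through D-boxes, NFIL3 occupies the same sites as a repressor, and in mouse liver and kidney the PAR bZIP proteins are known for driving daily rhythms of detoxification genes. DEC1 (Bhlhe40), DEC2 (Bhlhe41) and CHRONO (Ciart) repress CLOCK and BMAL1, and RORα (Rora) activates Arntl and other genes through ROR elements.

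RefSeq promoter windows of GRCm38.p6 were found for 7 of the 8 genes, with 2 windows for Tef. They are shown because the E-box, CACGTG, is a site through which the clock reaches output genes. In the 250 bases before the start site, an E-box was present in both windows of Tef, once in Bhlhe41 and at 3 places in Ciart, and in 6.02% of all 32851 windows of that length. The printed stretches lie outside annotated exons, except the first Tef window, which lies within a transcript and is given as 30 bases around its E-box. Capitals mark the E-box, or in Hlf the palindromic cAMP response element TGACGTCA, which 1.55% of windows hold and which ends 1 base before the Hlf start site. Each is written 5′ to 3′ on the strand of its gene, from chr15:81802534-81802563 and chr15:81811164-81811413 (plus strand) for Tef, chr6:145865559-145865670 (minus) for Bhlhe41, chr3:95882252-95882478 (minus) for Ciart, chr11:90390918-90391167 (minus) for Hlf and chr7:45704997-45705087 (plus) for Dbp.
Tef, first window: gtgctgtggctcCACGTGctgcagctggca
Tef, other window: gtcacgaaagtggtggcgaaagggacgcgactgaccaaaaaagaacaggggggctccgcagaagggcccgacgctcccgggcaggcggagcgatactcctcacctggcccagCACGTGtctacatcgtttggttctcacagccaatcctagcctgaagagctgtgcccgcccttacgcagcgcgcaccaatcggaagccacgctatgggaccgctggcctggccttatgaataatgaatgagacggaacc
Bhlhe41: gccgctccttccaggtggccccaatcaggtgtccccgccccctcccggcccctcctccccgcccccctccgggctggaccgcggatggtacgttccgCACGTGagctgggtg
Ciart: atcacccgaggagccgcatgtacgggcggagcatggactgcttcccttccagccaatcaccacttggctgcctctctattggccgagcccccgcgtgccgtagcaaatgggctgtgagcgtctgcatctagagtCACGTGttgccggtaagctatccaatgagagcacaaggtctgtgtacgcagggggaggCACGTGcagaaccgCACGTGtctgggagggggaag
Hlf: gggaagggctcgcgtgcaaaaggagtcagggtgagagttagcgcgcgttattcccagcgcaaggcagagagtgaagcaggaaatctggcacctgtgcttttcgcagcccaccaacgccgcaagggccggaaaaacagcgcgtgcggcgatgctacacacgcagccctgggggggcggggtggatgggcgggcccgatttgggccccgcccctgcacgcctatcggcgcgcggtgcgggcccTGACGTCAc
Dbp: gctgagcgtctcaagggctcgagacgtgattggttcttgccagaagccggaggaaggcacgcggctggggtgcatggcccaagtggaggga
The Dbp, Hlf, Nfil3 and Rora windows held no CACGTG, and no window of the 7 genes held the D-boxes TTATGTAA or TTACGTAA, which 0.819% and 0.113% of all windows hold. The ROR core AGGTCA was found once, on the minus strand of the Nfil3 window, and in 14% of all windows. Both strands were searched, the listed motifs did not overlap, and a match is a description of the letters only. Sites outside these 250 bases were not searched.

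The libraries held 29762157 to 37415213 counts, and 1 count equalled 0.0266 to 0.0333 CPM, the count scaled to library size with TMM factors. CePPy 1 lay farthest from the vehicle libraries on the first principal component, at -56.8, and CePPy 2 nearest, at -3.8, with vehicle libraries between 18.1 and 29.8. Kidney tubule markers were plainly present, with the proximal tubule list summing to 3842 to 8766 CPM in CePPy and 3265 to 3430 CPM in vehicle libraries. In RNA of whole kidney, a change in the number of cells of a type and a change in RNA per cell cannot be told apart.

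Among the clock output factors, the 3 PAR bZIP activators and their competitor Nfil3 had higher values in each CePPy library than in any vehicle library, with fitted folds of 1.5 to 1.94. Rora was also higher without overlap, with a smaller fitted fold of 1.16. The repressors Bhlhe41 and Ciart overlapped between the groups, as did Bhlhe40, the single gene with a lower mean in CePPy. With the quasi-likelihood test of edgeR and Benjamini-Hochberg adjustment over all genes, 0 of the 8 passed the threshold of 0.05, beside 0% of all genes tested for higher and 0.00649% for lower values. At an unadjusted p under 0.05, 5 of the 8 were higher and 0 lower, against 9.65% and 9.37% of all genes tested. The groups did not overlap for the same 5 genes, all higher, where 12.3% of all genes tested were higher and 14% lower without overlap. Dbp, Tef, Hlf and Nfil3 correlated with each other at r of 0.93 to 0.99 over all libraries. These counts of members are therefore not counts of separate observations. DESeq2 called 3 of the 8 higher (Dbp, Tef and Hlf), and 0 lower, where it called 3.4% of its genes higher and 3.2% lower. Limma-voom with sample weights called 2 higher (Tef and Hlf) and 0 lower, against 0.96% and 1.32% of all genes. Without CePPy 2, edgeR called 4 of the 8 higher, namely Dbp, Tef, Hlf and Nfil3, where it called 2.98% of the genes tested in that fit higher. CePPy 2 was the lowest CePPy library for each of these 4 genes. Leaving out any other single library gave 0 calls among the 8. The median log2 fold change over the 8 genes was 0.50, and over all genes tested 0.00.

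**Figure D1:**
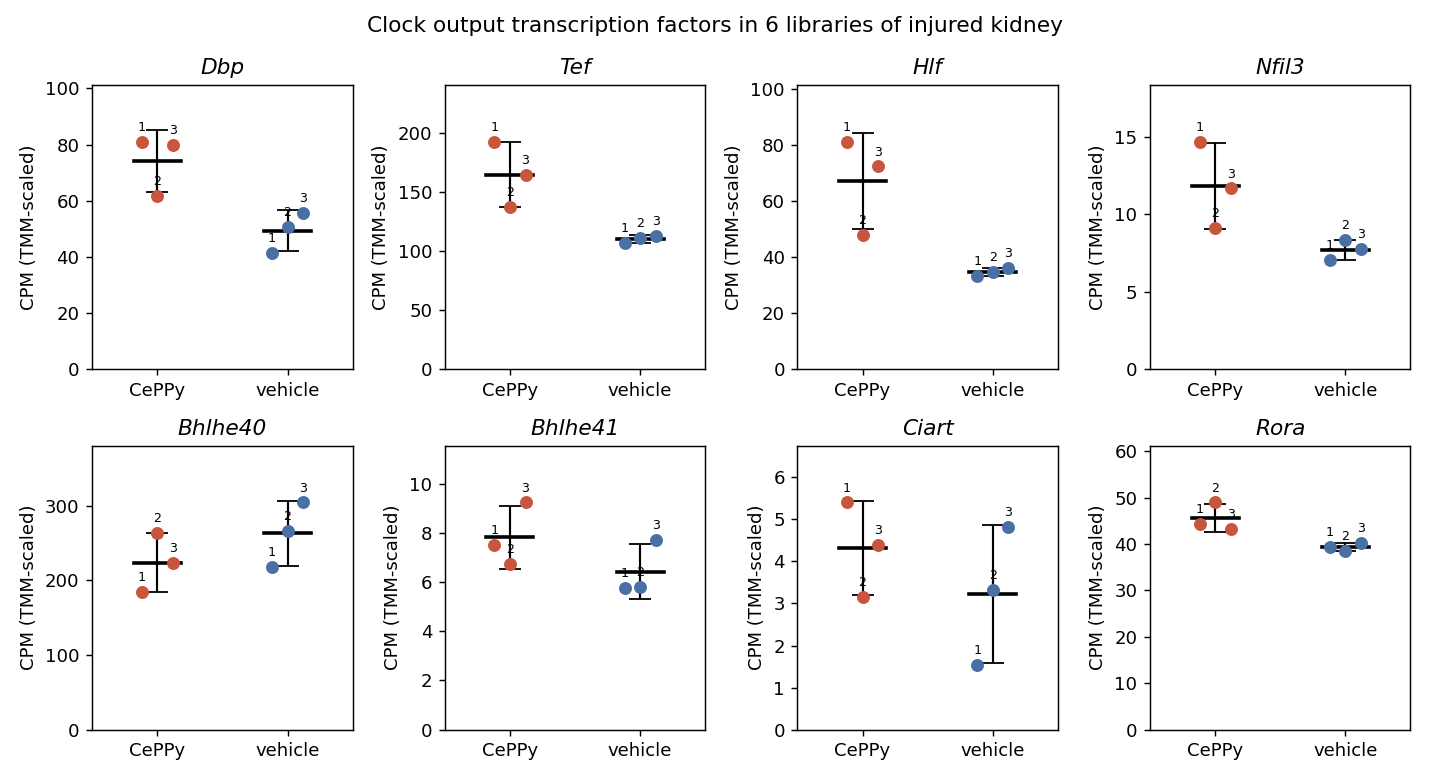
Levels of the 8 genes in CPM (vertical axes, from 0) in the 3 CePPy and the 3 vehicle libraries; each dot is a library with its replicate number, the horizontal line is the mean and the bars are the SD. Dbp, Tef, Hlf, Nfil3 and Rora were higher in each CePPy library, while Bhlhe40, Bhlhe41 and Ciart overlapped.

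Dbp encodes the D-box binding protein, a PAR bZIP activator with a strong daily rhythm in many tissues (chromosome 7, 45705088 to 45710203, plus strand, GRCm38). It measured 81.0, 61.6 and 79.8 CPM in CePPy 1, 2 and 3, against 41.4, 50.8 and 55.7 CPM in vehicle 1, 2 and 3. CePPy 2 was the lowest of its group and lay just above vehicle 3. The means were 74.1 ± 10.9 CPM in CePPy and 49.3 ± 7.25 CPM in vehicle libraries (SD, n = 3 each), a log2 fold change of 0.59 (SE 0.14, 95% interval 0.26 to 0.92, edgeR adjusted p = 0.117). DESeq2 called it higher (0.59, adjusted p = 0.0077), and so did edgeR without CePPy 2 (0.71, adjusted p = 0.0312). Its exons overlap by 539 bases those of Sphk2, a sphingosine kinase gene on the other strand. If strand was not used in counting, their reads could be mixed. Sphk2 measured 41.0, 39.3 and 39.6 CPM in CePPy and 37.3, 40.1 and 40.4 CPM in vehicle libraries, a log2 fold change of 0.03 (SE 0.08).

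Tef encodes the thyrotroph embryonic factor, a PAR bZIP activator with a broad tissue range (chromosome 15, 81802421 to 81826863, plus strand). It measured 193, 137 and 164 CPM in CePPy 1, 2 and 3, against 106.5, 111 and 113 CPM in the vehicle libraries. The vehicle libraries lay close together and the CePPy libraries were spread over a range wider than the gap between groups. The means were 165 ± 27.7 CPM in CePPy and 110.05 ± 3.20 CPM in vehicle libraries, a log2 fold change of 0.58 (SE 0.12, 95% interval 0.30 to 0.86, edgeR adjusted p = 0.102). It was called higher by DESeq2 (adjusted p = 0.00134), by limma-voom with sample weights (adjusted p = 0.034) and by edgeR without CePPy 2 (0.70, adjusted p = 0.0172).

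Hlf, whose product is the hepatic leukemia factor, showed the largest fold change of the 8 genes (chromosome 11, 90336536 to 90390895, minus strand). It measured 81.2, 48.0 and 72.4 CPM in CePPy 1, 2 and 3, against 33.2, 34.6 and 36.2 CPM in the vehicle libraries. Even CePPy 2, the lowest of its group, lay above all vehicle libraries. The means were 67.2 ± 17.2 CPM in CePPy and 34.7 ± 1.47 CPM in vehicle libraries, a log2 fold change of 0.95 (SE 0.18, 95% interval 0.54 to 1.36, edgeR adjusted p = 0.0916). Its unadjusted p of 0.000683 ranked 115 among the 15416 genes tested. DESeq2 called it higher (adjusted p = 6.34e-05), as did limma-voom with sample weights (adjusted p = 0.0306) and edgeR without CePPy 2 (1.15, adjusted p = 0.00654).

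To compare the 3 activators with each other, counts were divided by the exon length of each gene in GENCODE M21 (RPKM). Summed over Dbp, Tef and Hlf, the level was 63.7, 45.2 and 58.4 RPKM in CePPy 1, 2 and 3 and 32.3, 36.2 and 38.3 RPKM in the vehicle libraries. The sum averaged 55.7 ± 9.53 RPKM in CePPy and 35.6 ± 3.04 RPKM in vehicle libraries, with no overlap. Hlf made up 19.1%, 15.9% and 18.6% of the sum in CePPy libraries and 15.4%, 14.3% and 14.1% in vehicle libraries. Dbp made up 42.5% to 45.7% in CePPy and 42.8% to 48.5% in vehicle libraries, so its share overlapped between groups, and Hlf was the only one of the 3 whose share did not.

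**Figure D2:**
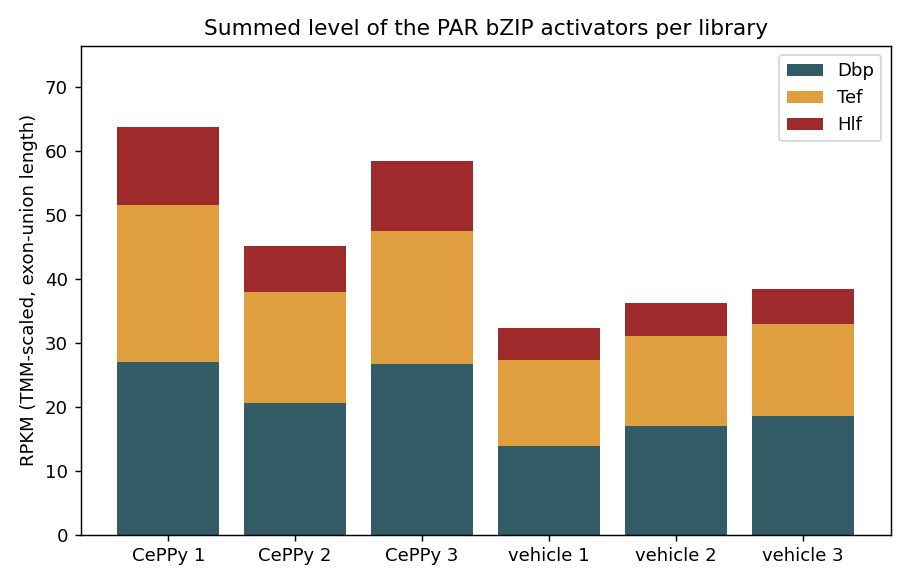
Level of Dbp, Tef and Hlf in RPKM (stacked bars, vertical axis from 0) in each of the 6 libraries, CePPy on the left and vehicle on the right. The summed level ran from 45.2 to 63.7 RPKM in CePPy and from 32.3 to 38.3 RPKM in vehicle libraries.

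Nfil3 encodes E4BP4, the bZIP repressor that binds D-boxes in competition with the PAR bZIP proteins and in the mouse also serves the development of natural killer cells (chromosome 13, 52967209 to 52981073, minus strand). It measured 14.7, 9.09 and 11.7 CPM in CePPy 1, 2 and 3, against 7.04, 8.33 and 7.75 CPM in the vehicle libraries. The groups did not overlap, though CePPy 2 exceeded vehicle 2 by less than 1 CPM. The means were 11.8 ± 2.80 CPM in CePPy and 7.71 ± 0.643 CPM in vehicle libraries, a log2 fold change of 0.62 (SE 0.19, 95% interval 0.18 to 1.05, edgeR adjusted p = 0.16). DESeq2 gave an adjusted p of 0.0621 and limma-voom 0.0987, and edgeR called it without CePPy 2 (0.77, adjusted p = 0.0467). The repressor and the activators thus had higher values in the same libraries. The log2 ratio of Nfil3 to Dbp counts was -2.46, -2.76 and -2.78 in CePPy and -2.56, -2.61 and -2.84 in vehicle libraries, which overlapped, and so did the ratio to Tef, at -3.91 to -3.71 in CePPy and -3.92 to -3.74 in vehicle libraries. The ratio to Hlf was lower in each CePPy library, at -2.47, -2.40 and -2.63, than in the vehicle libraries, at -2.24, -2.06 and -2.22.

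Marker genes of T and natural killer cells were few in these kidneys, and 7 of the 9 listed were tested. All 7 had higher values in CePPy and 0 passed edgeR (1 at an unadjusted p under 0.05, 0 by DESeq2). Their summed level was 5.4 to 18.8 CPM in CePPy and 3.62 to 12.5 CPM in vehicle libraries. In log2 units above the vehicle mean, the list stood at 1.62 in CePPy 1, 0.99 in CePPy 2 and -0.26 in CePPy 3, and its part in the Nfil3 values was not tested.

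Bhlhe40 had the highest mean CPM of the 8 genes in both groups, though in CePPy 1 it lay below Tef (chromosome 6, 108660629 to 108666925, plus strand). Its product DEC1 is a basic helix-loop-helix repressor that is also induced by hypoxia. It measured 185, 263 and 223 CPM in CePPy 1, 2 and 3, against 218, 267 and 304 CPM in the vehicle libraries. CePPy 1 lay below all vehicle libraries, but CePPy 2 and 3 lay within the vehicle range. The means were 224 ± 39.3 CPM in CePPy and 263 ± 43.5 CPM in vehicle libraries, a log2 fold change of -0.23 (SE 0.16, 95% interval -0.60 to 0.14, edgeR adjusted p = 0.465). The log2 fold change became -0.11 without CePPy 1 or without vehicle 3, -0.37 without CePPy 2 and -0.35 without vehicle 1. Immune cells also express DEC1, and their marker lists did not all differ in one direction. Values were lower in CePPy for 6 of 6 neutrophil genes tested, with a sum of 10.02 to 23.3 CPM in CePPy and 34.1 to 51.0 CPM in vehicle libraries, and 7 of 9 macrophage genes, with a sum of 246 to 266 CPM in CePPy and 257 to 305 CPM in vehicle libraries. Values were higher in CePPy for the T and natural killer cell genes given with Nfil3. Of 5 listed B cell genes, Cd79a and Cd79b were tested. Cd79a hardly differed (log2 fold change 0.005, SE 0.46), and Cd79b was higher (0.63, SE 0.50) with overlapping groups. The B cell sum was 1.89 to 2.63 CPM in CePPy and 0.98 to 2.12 CPM in vehicle libraries. EdgeR called 0 genes of the neutrophil, macrophage and B cell lists (5 neutrophil genes lower at an unadjusted p under 0.05, and 0 of the other two lists) and DESeq2 called 3 neutrophil genes lower. The part of these lists in the Bhlhe40 values was not tested.

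Bhlhe41, which encodes the related repressor DEC2 and lies on the same chromosome (6, 145858243 to 145865558, minus strand), was far scarcer. It measured 7.51, 6.73 and 9.23 CPM in CePPy 1, 2 and 3, against 5.76, 5.80 and 7.72 CPM in the vehicle libraries. Vehicle 3 exceeded CePPy 1 and 2, so the groups overlapped. The means were 7.82 ± 1.28 CPM in CePPy and 6.43 ± 1.12 CPM in vehicle libraries. The log2 fold change was 0.28 (SE 0.19, 95% interval -0.16 to 0.73, edgeR adjusted p = 0.453), and it became 0.15 without CePPy 3 and 0.43 without vehicle 3. An experimental gene model on the other strand shares 1280 exon bases with it, and reads of that model could be mixed in. Antisense genes also share 193 exon bases with Tef, 118 with Bhlhe40 and 82 with Rora.

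Ciart encodes CHRONO, a repressor that binds BMAL1, and is the gene with 3 E-boxes in the promoter window (chromosome 3, 95878503 to 95882251, minus strand). It had the lowest counts, from 119 to 192 per CePPy library and from 55 to 162 per vehicle library. In CPM, it measured 5.40, 3.16 and 4.40 in CePPy 1, 2 and 3, against 1.53, 3.33 and 4.81 in the vehicle libraries. The vehicle libraries alone differed about as widely as the whole set, vehicle 1 being the lowest and vehicle 3 second to CePPy 1. The means were 4.32 ± 1.12 CPM in CePPy and 3.22 ± 1.64 CPM in vehicle libraries. The log2 fold change was 0.42 (SE 0.40, 95% interval -0.51 to 1.35, edgeR adjusted p = 0.594). It became 0.09 without vehicle 1, 0.23 without CePPy 1 and 0.83 without vehicle 3.

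Rora encodes the nuclear receptor RORα, often counted with the clock's secondary loop rather than its output (chromosome 9, 68653786 to 69388246, plus strand). It measured 44.4, 48.9 and 43.2 CPM in CePPy 1, 2 and 3, against 39.4, 38.5 and 40.2 CPM in the vehicle libraries. The groups did not overlap, and here CePPy 2 was the highest library. The means were 45.5 ± 3.02 CPM in CePPy and 39.4 ± 0.825 CPM in vehicle libraries, a log2 fold change of 0.21 (SE 0.08, 95% interval 0.03 to 0.39, edgeR adjusted p = 0.213). DESeq2 and limma-voom did not call it, with adjusted p of 0.228 and 0.182.

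**Figure D3:**
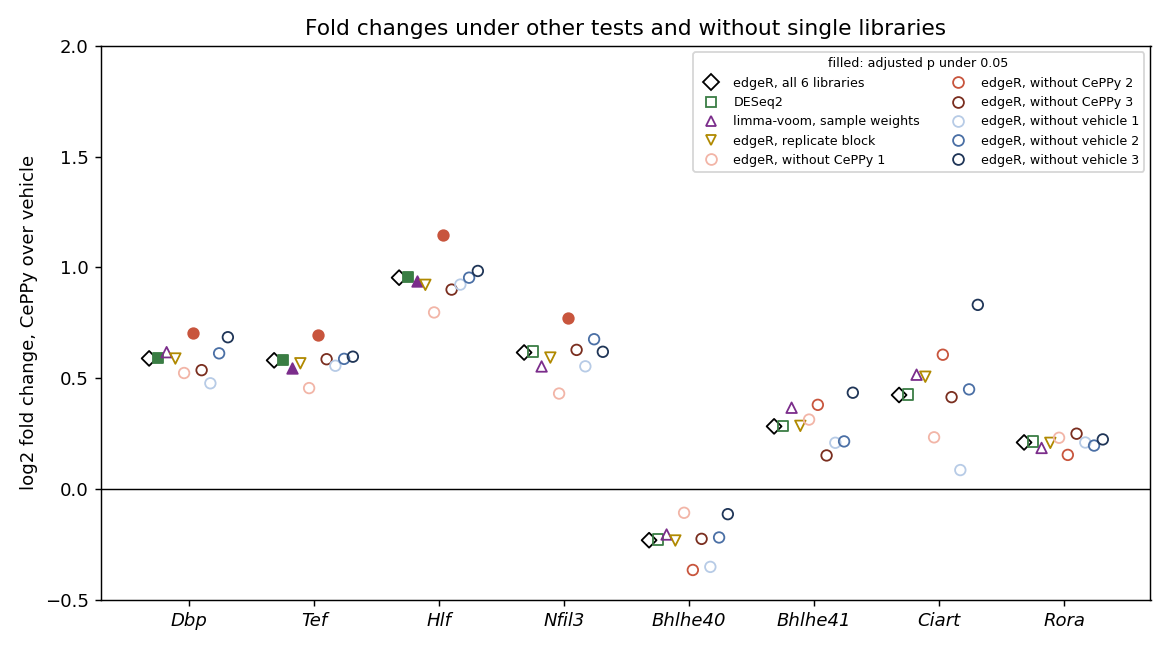
Log2 fold change of CePPy over vehicle (vertical axis) for the 8 genes by edgeR on all 6 libraries, by other tests and by edgeR without single libraries; filled symbols have an adjusted p under 0.05. Filled symbols are found for Dbp, Tef, Hlf and Nfil3, and the direction of each gene was the same in all settings drawn.

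Per exon length, the order of the 8 genes in CePPy libraries was Bhlhe40 at 47.6 ± 8.34 RPKM, Dbp at 24.8 ± 3.64, Tef at 20.9 ± 3.52, Hlf at 10.1 ± 2.58, Nfil3 at 5.83 ± 1.38, Rora at 3.48 ± 0.231, Ciart at 1.91 ± 0.496 and Bhlhe41 at 1.16 ± 0.191 RPKM. In vehicle libraries the order was the same, with Bhlhe40 at 55.9 ± 9.24, Dbp at 16.5 ± 2.42, Tef at 14.0 ± 0.407, Hlf at 5.19 ± 0.220, Nfil3 at 3.80 ± 0.317, Rora at 3.01 ± 0.0631, Ciart at 1.43 ± 0.727 and Bhlhe41 at 0.957 ± 0.167 RPKM. The neighbours Dbp and Tef differed by about the SD of Dbp in both groups, and Ciart and Bhlhe41 differed by less than the SD of Ciart in vehicle libraries. Exon lengths cover all annotated transcripts of a gene, so a gene with long, rarely used exons has an understated level.

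In 5 of the 8 genes (Dbp, Tef, Hlf, Nfil3 and Ciart) the CePPy libraries ranked in the order CePPy 1, CePPy 3 and CePPy 2 from high to low, and 21.7% of all genes tested showed this order. Marker lists of tubule segments had it too. In log2 units against the vehicle mean, the proximal tubule list stood at 1.40 in CePPy 1, 0.21 in CePPy 2 and 0.84 in CePPy 3, with all 10 markers higher. It was 1.74, 0.53 and 1.11 for the thick ascending limb, with all 7 higher, and 1.60, 0.33 and 1.02 for the distal convoluted tubule, with all 6 higher. EdgeR called 0 genes of these lists. At an unadjusted p under 0.05 it had 6, 6 and 4 of their genes higher, and DESeq2 called 4, 6 and 2 higher. The kidney injury list stood at -1.22, -0.16 and -0.36, with 11 of 12 genes at lower values, 0 called by edgeR (4 lower at an unadjusted p under 0.05) and 3 called lower by DESeq2. The part of the tubule and injury lists in the clock factor values was not tested.

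By Pearson correlation of log2 CPM over the 6 libraries, among 10888 genes of at least 5 CPM, the gene most like Dbp was Ppargc1a, which encodes the mitochondrial coactivator PGC-1α (r = 0.9956), followed by Bbs1 and Tax1bp1. Ppargc1a measured 42.6, 32.4 and 44.3 CPM in CePPy and 23.2, 27.7 and 30.3 CPM in vehicle libraries. Those most like Tef were Prodh2, Ace and Syt17 (r = 0.9972 to 0.9992), and those most like Hlf were Ace, Atp1b1 and Acad10 (r = 0.9959 each). Ace, the angiotensin-converting enzyme gene, stood on both lists and measured 141.5, 93.0 and 121 CPM in CePPy and 69.0, 71.2 and 76.3 CPM in vehicle libraries. Nfil3 was most like the heat shock gene Hsph1, Abca13 and the nuclear receptor gene Esrrb (r = 0.9968 to 0.9987). Bhlhe40 was most like Arl4a, Bend3 and Eif3a (r = 0.9876 to 0.9925), and Bhlhe41 like App, Tfap2b and Mtx3 (r = 0.9785 to 0.9876). Ciart was most like Nr2c1, Pagr1a and Ispd (r = 0.9746 to 0.9888), and Rora like Ttc21b, Kmt5b and Poc5 (r = 0.9864 to 0.9928). These correlations include the difference between groups and describe 6 libraries only. Among the 8 genes themselves, Dbp, Tef, Hlf and Nfil3 had r between 0.93 and 0.99 with each other, while Bhlhe40 had -0.67 with Hlf and Nfil3, -0.68 with Tef and -0.41 with Dbp.

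The core clock genes around these factors differed unevenly between the groups. All 11 were tested, 8 had higher and 3 lower values, and edgeR called 0 of them, while DESeq2 called 3 higher and 0 lower (3 and 1 at an unadjusted p under 0.05 by edgeR). Their median log2 fold change was 0.19. The period gene Per2, a repressor of the loop, measured 39.9, 29.3 and 33.8 CPM in CePPy and 17.3, 19.3 and 15.4 CPM in vehicle libraries (log2 fold change 0.98, SE 0.14, edgeR adjusted p = 0.0739). Per3 had a log2 fold change of 0.64 (SE 0.11) and the cryptochrome gene Cry1 one of 0.83 (SE 0.17), both without overlap. The 3 with lower values, named after they were seen, were the CLOCK-like activator gene Npas2 (-0.82, SE 0.31), Arntl (-0.27, SE 0.21) and Per1 (-0.24, SE 0.22), each with overlapping groups. Nr1d1, the REV-ERBα gene, had 0.11 (SE 0.11) and Clock 0.15 (SE 0.09).

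**Figure D4:**
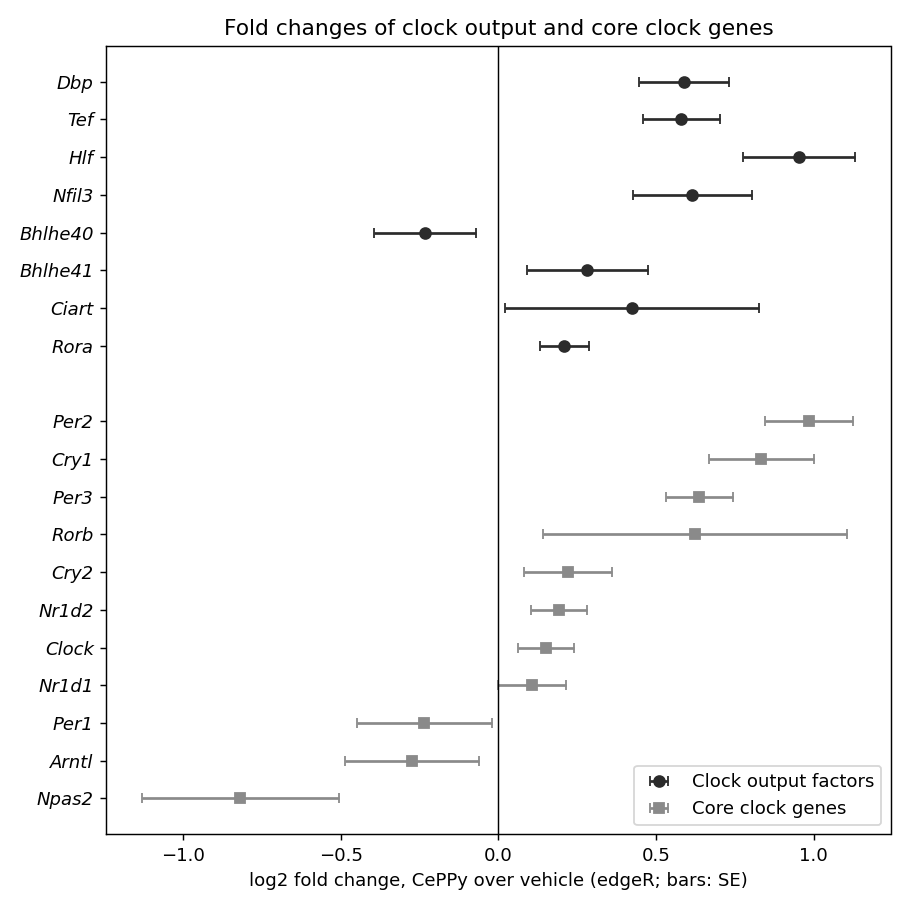
Log2 fold change of CePPy over vehicle (horizontal axis, edgeR) with its SE (bars) for the 8 clock output factors (circles) and 11 core clock genes (squares). Hlf at 0.95 and Per2 at 0.98 lay farthest to the right and Npas2 at -0.82 farthest to the left.

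Targets that the 8 factors are known to act on did not all follow them. Of 9 listed PAR bZIP targets, known mainly from mouse liver, 7 were tested, 2 had higher and 5 lower values, and the median log2 fold change was -0.13. EdgeR called 0 (1 higher and 2 lower at an unadjusted p under 0.05) and DESeq2 called 1 lower. The lowest p belonged to Cyp2a4, a steroid hydroxylase gene that may share reads with its near-identical neighbour Cyp2a5, at 217, 106 and 131 CPM in CePPy and 64.4, 111 and 67.1 CPM in vehicle libraries. Its log2 fold change was 0.90 (SE 0.30). Cyp2a5, also on the list, went the other way (-0.38, SE 0.25). It measured 85.6, 131 and 103 CPM in CePPy and 98.5, 126 and 191 CPM in vehicle libraries. Nr1i3, the gene of the drug sensor CAR and the one DESeq2 called, measured 0.225, 0.372 and 0.167 CPM in CePPy and 0.111, 2.03 and 2.94 CPM in vehicle libraries, so vehicle 1 lay below the CePPy libraries. Alas1, the first enzyme of heme synthesis, measured 389, 286 and 251 CPM in CePPy and 419, 358 and 429 CPM in vehicle libraries.

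Of 8 genes with ROR elements, which share Arntl, Clock, Npas2 and Cry1 with the core clock list, 7 were tested. Values were higher for 5 and lower for 2, Npas2 and Arntl, and the median was 0.83, the value of Cry1. EdgeR called 0 (4 higher and 1 lower at an unadjusted p under 0.05) and DESeq2 called 2 higher. Besides Cry1, the lowest p was that of Cyp7b1, an oxysterol hydroxylase gene at 47.3, 22.5 and 15.3 CPM in CePPy and 7.27, 14.5 and 6.36 CPM in vehicle libraries (log2 fold change 1.60, SE 0.46). Apoc3, an apolipoprotein gene, measured 14.6, 5.24 and 4.5 CPM in CePPy and 2.98, 3.09 and 2.94 CPM in vehicle libraries (1.44, SE 0.43), with CePPy 1 far above the other CePPy libraries. Without CePPy 1 the median of this list was 0.69. Among 8 E-box genes, which share Per1, Per2, Per3, Cry2, Nr1d1 and Nr1d2 with the core clock list, 6 had higher and 2 lower values with a median of 0.21. EdgeR called 0 of them (3 higher at an unadjusted p under 0.05) and DESeq2 called 3 higher. One of these was Usp2, a clock-linked deubiquitinase gene, at 80.3, 55.8 and 60.0 CPM in CePPy and 35.4, 44.3 and 52.3 CPM in vehicle libraries (0.57, SE 0.18).

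Of 12 kidney transport and signalling genes known to follow the clock, 10 had higher and 2 lower values, with a median of 0.44. EdgeR called 0 (8 higher at an unadjusted p under 0.05) and DESeq2 called 5 higher. The vasopressin receptor gene Avpr2 measured 5.94, 4.57 and 7.80 CPM in CePPy and 2.14, 3.47 and 2.53 CPM in vehicle libraries (log2 fold change 1.17, SE 0.27), and the water channel gene Aqp2 190.3, 181 and 265 CPM in CePPy and 127, 145 and 93.3 CPM in vehicle libraries (0.80, SE 0.20). Wnk1, a kinase of salt transport, had a log2 fold change of 0.39 (SE 0.10). Avpr2 and Aqp2 are also collecting duct markers, a list with all 9 members at higher values, 0 edgeR calls (6 higher at an unadjusted p under 0.05) and 3 called higher by DESeq2. The median of the transport list was 0.29 without CePPy 1 and 0.60 without CePPy 2.

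Glucocorticoids and hypoxia also act on some clock and clock output genes, and their targets were counted beside them. Of 8 glucocorticoid-induced genes, 4 had higher and 4 lower values (median -0.05). EdgeR called 0 (1 higher and 2 lower at an unadjusted p under 0.05) and DESeq2 called 2 lower. Dusp1, a phosphatase gene of the stress response, measured 26.4, 53.0 and 65.3 CPM in CePPy and 89.5, 77.4 and 104 CPM in vehicle libraries (-0.91, SE 0.29). Cebpd had a log2 fold change of -0.59 (SE 0.19) and Tsc22d3, which encodes GILZ, 0.40 (SE 0.16). Of 15 hypoxia targets, 6 had higher and 9 lower values (median -0.01), with 0 edgeR calls (1 higher and 1 lower at an unadjusted p under 0.05) and 1 higher and 1 lower by DESeq2. These 2 were Bnip3, a mitophagy gene, at a log2 fold change of 0.47 (SE 0.13), and Adm, the adrenomedullin gene, at -1.02 (SE 0.14), and the next lowest p was that of Vegfa, at 0.20 (SE 0.14). The summed hypoxia list lay at 3496 to 3812 CPM in CePPy and 3482 to 3923 CPM in vehicle libraries.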

How the data were processed

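RNA was sequenced from kidneys in 6 libraries, 3 per group, grouped by the titles in the labels. Per the labels' protocols, libraries were made with a Yeasen dual-mode mRNA kit from 2 µg of TRIzol-extracted RNA. The authors deposited 1 table of raw read counts per gene. The submitters' processing notes name TopHat2, Cufflinks, DESeq and GRCm38; the sources used here name no counting program, strand setting or annotation release. Gene coordinates and exon lengths came from GENCODE M21 (GRCm38).

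Genes were filtered with filterByExpr, scaled by TMM and tested for treatment alone by the quasi-likelihood method of edgeR 4.0.16 (R 4.3.3) on 4 residual degrees of freedom. To these, edgeR added prior degrees of freedom estimated across genes, and the p-values and 95% intervals used the total. The SE was the absolute log2 fold change divided by the square root of the F statistic. P-values were adjusted over all 15416 genes by Benjamini-Hochberg. Fold changes are CePPy over vehicle. No pair of libraries within a group was alike within sampling noise (chi-square per degree of freedom 19.7 to 105.6). Alternatives were DESeq2 1.42.0, limma-voom 3.58.1 with sample quality weights, other scalings, no filter, a replicate block and leaving out each library. An exact permutation test of 3 against 3 cannot go below a two-sided p of 0.1, so none is reported. The procedure was tested on simulated counts. The members and gene lists were chosen with earlier results of these data known. Named genes were all 8 members, up to 3 genes per list by lowest p, and the 3 genes most correlated with each member (log2 CPM, prior count 2, provisional gene models left out). Others, named after their values were seen or set beside these, are Arntl, Npas2, Per1, Nr1d1, Clock, Cyp2a5 and Sphk2. One gene of the lists is not reported here and was left out of their counts and medians.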

Additional observations from a re-analysis of the deposited data

How the results depend on the processing

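All 96 fold changes of the 8 genes under the 12 alternatives kept their direction, and 9 of them passed the threshold that none passed with edgeR on all libraries. For the 5 genes whose groups did not overlap, leaving out a library could hardly have reversed the direction. The other settings used the same libraries. DESeq2 gave 0.59 for Dbp, 0.58 for Tef and 0.96 for Hlf, and limma-voom with sample weights gave 0.55 for Tef and 0.94 for Hlf. Leaving out single libraries gave log2 fold changes of 0.48 to 0.71 for Dbp, 0.46 to 0.70 for Tef, 0.80 to 1.15 for Hlf and 0.43 to 0.77 for Nfil3, the highest of each, without CePPy 2, being the one past the threshold. The members called numbered 3 with DESeq2, 2 with limma-voom and 0 to 4 with a library left out. The count of members higher at an unadjusted p under 0.05 was 4 or 5 in all settings. The share of all genes tested is given for the main fit alone, at 9.65%, so the other settings lack this comparison. Over all genes, edgeR called 1 (0 higher, 1 lower), DESeq2 993 (512 higher, 481 lower), limma-voom 352 (148 higher, 204 lower) and edgeR without the low-count filter 63 (26 higher, 37 lower). Leaving out a library gave 0 to 811 calls (0 to 467 higher, 0 to 344 lower). Among the distinct genes of the pathway and kidney injury lists edgeR called 0, DESeq2 18, limma-voom 7, edgeR without the filter 2, and a left-out library 0 to 14. The cause of these differences was not tested. The labels number replicates 1 to 3 in both groups and name no pairing. Deviations of same-numbered libraries correlated at -0.15, 0.098 and -0.021, and those of differently numbered libraries at -0.148 to 0.18. From 3 libraries per group, these values cannot show whether same-numbered libraries were paired. With the replicate block edgeR called 0 genes (0 lower) and 0 members. Other scalings moved the median of all genes by less than 0.1 log2 units. Depth limits Ciart most, at 55 counts in vehicle 1.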
